A study of Mus musculus with 16 samples.

Results

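The 10 genes described here are a chosen set of genes of hepatic stellate cells and of the liver's extracellular matrix. They were taken by gene symbol from a table of 17003 genes, all 10 were listed in it, and all 10 were among the 12770 genes kept for tests, those averaging 0.1 FPKM or more over the mice. FPKM, fragments per length of transcript and per number of mapped fragments, is a level that is already scaled for transcript length and library size. RNA of whole liver was sequenced from 16 male mice of 8 weeks of age, labelled as fed, with 1 library per mouse. The 8 *Fgl1* LWT mice carried floxed *Fgl1* alleles (*Fgl1* fl/fl, from the Fgl1 tm1b(EUCOMM)Hmgu line after removal of its cassette by FLPO recombinase) and no CRE. The 8 *Fgl1* LKO mice carried the same alleles together with CRE under the albumin promoter, which is active in hepatocytes. Whether stellate cells and the other cells of the liver kept the floxed gene was not examined here. Both groups were kept on chow. The labels call the floxed mice *Fgl1* WT.

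Stellate cells lie between the hepatocytes and the sinusoidal endothelium, where they store retinyl esters in lipid droplets and secrete matrix components. After liver injury they lose these droplets, take on contractile filaments and become a major source of the fibrillar collagens of scar tissue. In a healthy liver the same genes are also expressed by portal fibroblasts, vascular smooth muscle and endothelial cells, to an extent that differs from gene to gene. In RNA of whole liver, a change in the number of cells of one type and a change in the RNA per cell cannot be told apart.

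*Fgl1*, the targeted gene, was at 157.8 to 1331 FPKM in *Fgl1* LWT mice and at 13.2 to 90.0 FPKM in *Fgl1* LKO mice, with no overlap. Each library summed to between 673153 and 786188 FPKM over all genes, while read numbers are unknown. Hepatocyte markers dominated every library, with summed levels of 58600 to 98630 FPKM over 7 genes led by *Alb* and *Apoa1*. Of 14 skeletal muscle genes, listed as a check for other tissue, only *Mylpf* reached a mean of 0.1 FPKM (0.68 FPKM), and 4 were at 0 in all mice. The numbers of the mice fall into 4 runs, and the first of these, 36 to 38, holds 3 *Fgl1* LWT mice only. The others are 48 to 55 (1 *Fgl1* LWT and 3 *Fgl1* LKO mice), 60 to 64 (2 and 3) and 69 to 72 (2 and 2). What the runs stand for is not stated.

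The 3 fibrillar collagen genes and *Dcn* frame the results, since the former varied together across the mice and the latter had Pearson r of 0.31 to 0.54 with them. *Col1a1* (NCBI Gene 12842) encodes the α1 chain and *Col1a2* (12843) the α2 chain of type I collagen, which join as trimers of mostly 2 α1 chains and 1 α2 chain. *Col3a1* (12825) encodes the chain of type III collagen, and *Dcn* (13179) encodes decorin, a small proteoglycan that binds collagen fibrils. On GRCm39, the assembly also called mm39, with GENCODE vM39 genes, they lie on 4 chromosomes and on the plus strand, at chr11:94827050-94843868, chr6:4504814-4541555, chr1:45350698-45395840 and chr10:97315275-97358155. The 150 bases before the annotated start of the principal transcript of each gene are shown 5′ to 3′, to set the stretches of the 3 collagens beside that of *Dcn*, with matches to CCAAT or TATAAA on either strand in capitals (ATTGG is CCAAT on the other strand). The stretches are chr11:94826900-94827049, chr6:4505343-4505492, chr1:45350548-45350697 and chr10:97315125-97315274, all on the plus strand.
Col1a1: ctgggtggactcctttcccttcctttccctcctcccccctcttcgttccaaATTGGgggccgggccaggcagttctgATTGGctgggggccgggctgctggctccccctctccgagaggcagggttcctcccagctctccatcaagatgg
Col1a2: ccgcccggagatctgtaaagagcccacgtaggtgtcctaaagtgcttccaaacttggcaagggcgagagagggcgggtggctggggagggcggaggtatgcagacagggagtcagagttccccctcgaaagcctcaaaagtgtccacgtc
Col3a1: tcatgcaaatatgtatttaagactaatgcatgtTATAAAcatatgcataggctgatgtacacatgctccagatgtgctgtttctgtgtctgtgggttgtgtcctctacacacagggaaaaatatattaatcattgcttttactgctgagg
Dcn: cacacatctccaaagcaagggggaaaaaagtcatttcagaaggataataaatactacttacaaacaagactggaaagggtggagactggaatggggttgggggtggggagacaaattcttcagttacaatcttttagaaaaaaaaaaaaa

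The G and C content of these stretches was 64.7% for *Col1a1*, 60.0% for *Col1a2*, 37.3% for *Col3a1* and 38.0% for *Dcn*, so the genes whose levels moved together did not share it. From 250 bases before to 50 bases after the annotated start, on either strand, CCAAT was found in 6 of the 10 genes (*Col1a1*, *Col1a2*, *Col4a1*, *Timp1*, *Des* and *Lrat*) and in 39.9% of 21770 promoters of protein-coding genes. GGGCGG, the GC box, was found in 6 of 10 genes, not the same 6, against 42.5% of promoters. TATAAA was found in *Col1a1* and *Col3a1*, against 13.2% of promoters. In *Col1a1* it began at the first base of the annotated transcript, and all windows are placed by the annotated start alone. TGANTCA (an AP-1 site), GTCTAGAC (a SMAD element), TTCNNNGAA (a STAT site) and the CArG box were in none of the 10 windows, against 7.14%, 0.266%, 8.81% and 1.54% of promoters. A CArG box can hold TATAAA or CCAAT, and none of the other patterns holds another. A match or its absence in these windows is a description of the letters only.

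The order of the mean levels over the 16 mice was led by *Dcn* at 61.3 ± 13.6 FPKM (SD, n = 16), above each of the other members in every mouse. *Col4a1* followed at 9.53 ± 3.20 FPKM and *Col3a1* at 9.38 ± 4.27 FPKM, and each of these was the higher of the pair in 8 of 16 mice, so their order is not set. *Col1a2* (4.37 FPKM) and *Reln* (4.16 FPKM) were likewise split 8 to 8, as were *Col1a1* (3.23 FPKM) and *Lrat* (2.64 FPKM). *Des* (1.29 FPKM) was below *Lrat* in 15 of 16 mice and above *Acta2* (1.13 FPKM) in 12 of 16, and *Timp1* (0.379 FPKM) was last, below *Acta2* in 14 of 16 mice. The median coefficient of variation of the 10 genes over the 16 mice was 41.8%, against 17.9% over all genes kept. It was lowest for *Des* (20.4%) and *Dcn* (22.2%), and highest for *Timp1* (102%).

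**Figure D1:**
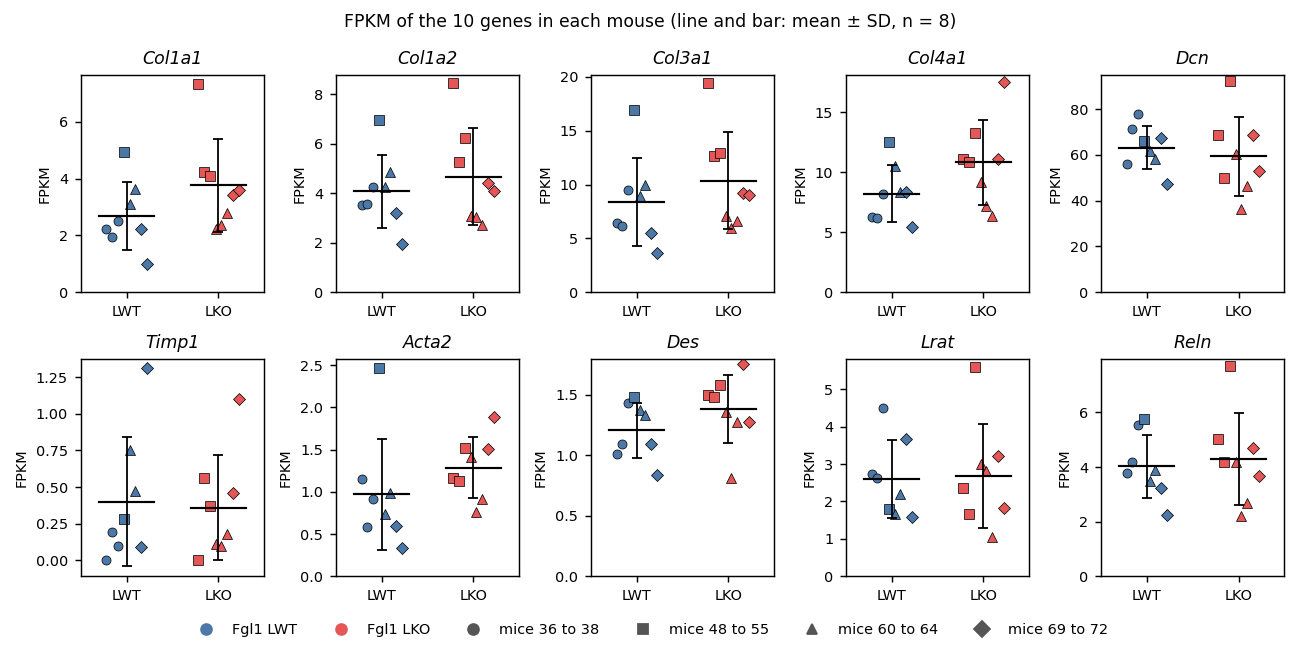
FPKM of each gene (y axis, one panel per gene) in the 8 *Fgl1* LWT and 8 *Fgl1* LKO mice (x axis), with the mean and SD as black lines and the run of mouse numbers as the shape of the point. The genotypes overlap in all 10 panels, and the squares, mice 48 to 55, are the 4 highest for *Col1a1*, *Col1a2* and *Col3a1*.

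The fibrillar collagens were higher on average in *Fgl1* LKO mice without separating the genotypes. *Col1a1* was at 1.0 to 4.93 FPKM (median 2.38) in *Fgl1* LWT mice and at 2.21 to 7.35 FPKM (median 3.52) in *Fgl1* LKO mice, with means of 2.69 ± 1.19 and 3.76 ± 1.63 FPKM (SD, n = 8 each). 6 of the 8 *Fgl1* LKO mice lay above the *Fgl1* LWT median, yet all but 1 lay within the *Fgl1* LWT range. The log2 fold change of FPKM + 1, *Fgl1* LKO minus *Fgl1* LWT, was 0.37 with a 95% interval of -0.07 to 0.80 (limma, unadjusted p = 0.0911, adjusted p = 0.709).

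*Col3a1* spanned 3.65 to 16.95 FPKM (median 7.72) in *Fgl1* LWT mice and 5.96 to 19.43 FPKM (median 9.14) in *Fgl1* LKO mice, with means of 8.39 ± 4.08 and 10.4 ± 4.49 FPKM (SD, n = 8 each). Again 1 *Fgl1* LKO mouse, replicate 1, exceeded every *Fgl1* LWT mouse, and the log2 fold change was 0.30 (-0.23 to 0.83, limma adjusted p = 0.788). *Col1a2* was at 1.95 to 6.97 FPKM (median 3.90) in *Fgl1* LWT mice and 2.72 to 8.47 FPKM (median 4.26) in *Fgl1* LKO mice. Its means of 4.07 ± 1.46 and 4.67 ± 1.95 FPKM gave a log2 fold change of 0.14 (-0.28 to 0.56, limma adjusted p = 0.878). The lowest mouse for all 3 genes was *Fgl1* LWT replicate 8 and the highest was *Fgl1* LKO replicate 1.

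*Col4a1* (NCBI Gene 12826) encodes the α1 chain of type IV collagen, the network-forming collagen of basement membranes, and lies at chr8:11248423-11362826 on the minus strand, with its start 317 bases from that of its partner chain *Col4a2* on the opposite strand. It is on the chromosome of *Fgl1*, 30.4 Mb away. *Col4a1* was at 5.43 to 12.52 FPKM (median 8.27) in *Fgl1* LWT mice and at 6.37 to 17.55 FPKM (median 11.0) in *Fgl1* LKO mice, with means of 8.23 ± 2.38 and 10.8 ± 3.53 FPKM (SD, n = 8 each). 2 *Fgl1* LKO mice, replicates 3 and 8, lay above all *Fgl1* LWT mice. The log2 fold change of 0.34 (-0.04 to 0.72) had the lowest p-value of the 10 genes (limma, unadjusted p = 0.0742, adjusted p = 0.701). *Col4a2* was at 5.45 ± 1.93 and 6.35 ± 1.43 FPKM (SD, n = 8 each), with a log2 fold change of 0.22 (-0.15 to 0.58, limma adjusted p = 0.784).

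*Dcn* was on average lower in *Fgl1* LKO mice, unlike the collagens. It was at 47.28 to 77.9 FPKM (median 63.9) in *Fgl1* LWT mice and at 36.36 to 92.33 FPKM (median 56.6) in *Fgl1* LKO mice, with means of 63.2 ± 9.54 and 59.4 ± 17.3 FPKM (SD, n = 8 each). Both the lowest mouse and the highest mouse were *Fgl1* LKO mice (replicates 5 and 3), so that the *Fgl1* LKO values enclosed all the *Fgl1* LWT values. The log2 fold change was -0.12 (-0.44 to 0.19, limma adjusted p = 0.847).

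*Timp1* (NCBI Gene 21857, chrX:20736316-20740976, plus strand) encodes an inhibitor of matrix metalloproteinases that rises in fibrotic liver. Its FPKM was at 0 in 2 mice, *Fgl1* LWT replicate 1 and *Fgl1* LKO replicate 1, and between 0.09 and 0.11 in 4 others. The highest values were 1.31 FPKM in *Fgl1* LWT replicate 8, about 13 times the median of those 4, and 1.10 FPKM in *Fgl1* LKO replicate 8. The genotypes covered the same range, with a log2 fold change of -0.03 (-0.39 to 0.33, limma adjusted p = 0.978). *Timp1* lies inside *Syn1* on the opposite strand, which was at 0 to 0.2 FPKM. The library kit keeps the strand, and whether the counting used it is not stated.

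Of the cytoskeletal genes, *Acta2* (NCBI Gene 11475, chr19:34217737-34232990, minus strand) encodes smooth muscle α-actin, the contractile actin of vascular smooth muscle and of activated stellate cells. It was at 0.33 to 2.47 FPKM (median 0.825) in *Fgl1* LWT mice and at 0.76 to 1.89 FPKM (median 1.29) in *Fgl1* LKO mice, with means of 0.971 ± 0.659 and 1.29 ± 0.366 FPKM (SD, n = 8 each). 7 of 8 *Fgl1* LKO mice lay above the *Fgl1* LWT median, but both the lowest mouse (replicate 8) and the highest (replicate 4) were *Fgl1* LWT mice. The log2 fold change was 0.26 (-0.07 to 0.58, limma unadjusted p = 0.114, adjusted p = 0.718). *Stambpl1*, which overlaps *Acta2* on the opposite strand, was at 0.05 to 0.6 FPKM.

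*Des* (NCBI Gene 13346, chr1:75320511-75345223, plus strand) encodes desmin, an intermediate filament of muscle that rodent stellate cells also carry. *Des* was at 0.84 to 1.48 FPKM (median 1.21) in *Fgl1* LWT mice and at 0.81 to 1.75 FPKM (median 1.42) in *Fgl1* LKO mice. 3 of 8 *Fgl1* LKO mice lay above all *Fgl1* LWT mice and 1 lay below them, and the log2 fold change was 0.11 (-0.07 to 0.28, limma adjusted p = 0.780). On the scale of FPKM + 1, this was the narrowest interval among the 10 genes.

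*Lrat* and *Reln*, the members most closely tied to the quiescent stellate cell, had small differences between genotypes. *Lrat* (NCBI Gene 79235, chr3:82799886-82811288, minus strand) encodes lecithin-retinol acyltransferase, which esterifies retinol for storage. It was at 1.59 to 4.51 FPKM (median 2.41) in *Fgl1* LWT mice and at 1.04 to 5.59 FPKM (median 2.58) in *Fgl1* LKO mice, and its means of 2.60 ± 1.04 and 2.69 ± 1.39 FPKM gave a log2 fold change of 0.00375 (-0.43 to 0.44, limma adjusted p = 0.997). *Reln* (NCBI Gene 19699, chr5:22089452-22549700, minus strand) encodes reelin, a secreted glycoprotein best known from brain development that stellate cells also make. *Reln* was at 2.25 to 5.77 FPKM (median 3.85) in *Fgl1* LWT mice and at 2.21 to 7.7 FPKM (median 4.18) in *Fgl1* LKO mice, a log2 fold change of 0.05 (-0.33 to 0.43, limma adjusted p = 0.959). For both genes the *Fgl1* LKO mice reached above and below the *Fgl1* LWT range.

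**Figure D2:**
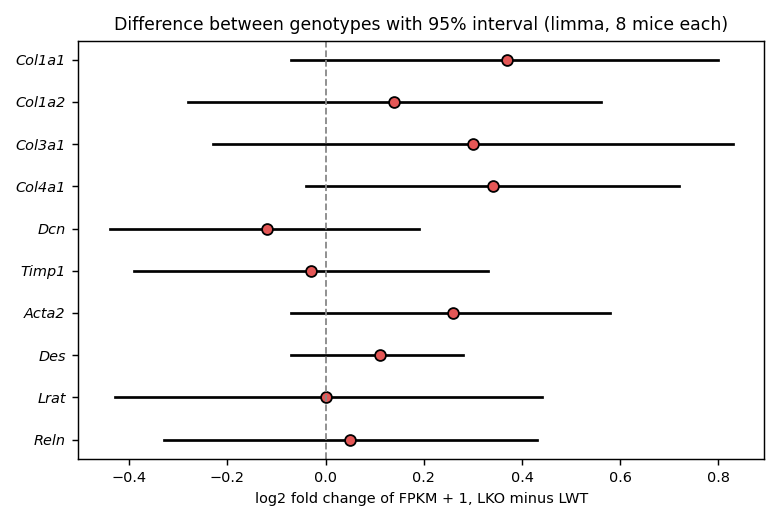
Log2 fold change of FPKM + 1 between genotypes (x axis, *Fgl1* LKO minus *Fgl1* LWT) for each of the 10 genes (y axis), with points for the estimate and lines for the 95% interval from limma over 8 mice per genotype. All 10 intervals include 0, and the widest, that of *Col3a1*, runs from -0.23 to 0.83.

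Of the 10 genes, 0 passed the threshold of 0.05 on the limma p-value adjusted over all genes, and 0 had an unadjusted p under 0.05. Over all 12770 genes, 0.0% passed the first threshold and 7.01% the second (593 genes higher and 302 lower in *Fgl1* LKO mice). *Fgl1* itself, at a log2 fold change of -3.11, had an adjusted limma p of 0.0725, so the first threshold missed even the targeted gene. In an exact permutation test over the 12870 splits of the mice, the lowest two-sided p of the 10 genes was 0.105, for *Col4a1*, without adjustment. The log2 fold change was above 0 for 8 of the 10 genes, against 55.8% of all genes, and its median was 0.12, against 0.0143 over all genes. The genotypes separated without overlap for 0 of the 10 genes and for 0.0157% of all genes. On the fold scale of FPKM + 1, the 95% intervals allow up to 1.77-fold higher values in *Fgl1* LKO mice for *Col3a1* and 1.75-fold for *Col1a1*, and down to 0.737-fold for *Dcn*. These limits hold for that scale only, since the added 1 can shrink differences of low genes. The log2 fold change of *Acta2* was 0.256 on it and 0.516 with 0.1 added in place of 1. In the same order it was 0.369 and 0.494 for *Col1a1*, 0.106 and 0.173 for *Des*, and -0.0251 and -0.0278 for *Timp1*.

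The run of mouse numbers went with the levels of the fibrillar collagens, in the same mice across all 3 genes. The 4 mice numbered 48 to 55 had 12.65 to 19.43 FPKM of *Col3a1*, and the other 12 mice had 3.65 to 9.95 FPKM. For *Col1a1* the values were 4.09 to 7.35 FPKM against 1.0 to 3.62 FPKM, and for *Col1a2* 5.27 to 8.47 FPKM against 1.95 to 4.87 FPKM. No other member separated these 4 mice from the rest in this way. In a limma F test of the run with genotype in the model, chosen after the values were seen, 0 of the 10 genes passed the threshold after adjustment, against 0.102% of all genes. An unadjusted p under 0.05 was found for 4 of the 10 genes, against 17.6% of all genes. The adjusted limma p of these 4 was 0.106 for *Col3a1*, 0.110 for *Col1a2*, 0.184 for *Col1a1* and 0.198 for *Reln*.

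This run holds 3 *Fgl1* LKO mice and 1 *Fgl1* LWT mouse, so that run and genotype are not balanced. With all 4 runs as a term in limma, the log2 fold change was 0.15 for *Col1a1*, 0.06 for *Col3a1*, -0.02 for *Col1a2* and 0.18 for *Col4a1*, each below its value without the term, while *Lrat* went to 0.16 and *Timp1* to -0.16. Without mice 48 to 55 alone, the values were 0.23 for *Col1a1*, 0.11 for *Col3a1*, -0.05 for *Col1a2* and 0.33 for *Col4a1*. Within runs, the difference in mean log2(FPKM + 1) of *Col3a1*, *Fgl1* LKO minus *Fgl1* LWT, was -0.19 among mice 48 to 55, -0.47 among mice 60 to 64 and 0.88 among mice 69 to 72, so it did not keep its sign. *Col1a1* had 0.03, -0.34 and 0.83 and *Col4a1* had -0.09, -0.29 and 0.95 in the same runs. Each within-run value rests on 4 or 5 mice, and the run of mice 36 to 38 gives none, since it holds 1 genotype.

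Some markers of other cells were also higher in this run. The summed level of 8 sinusoidal endothelial markers was 75.2 to 120 FPKM in mice 48 to 55 and 31.0 to 83.5 FPKM in the other 12, and that of 15 portal fibroblast and mesothelial markers was 18.2 to 21.3 FPKM against 10.4 to 18.5 FPKM. For 19 smooth muscle and pericyte markers the sums were 128 to 156 FPKM against 94.9 to 140 FPKM. The sums of 7 Kupffer cell markers, 92.3 to 137 FPKM, and of 7 hepatocyte markers, 71100 to 78400 FPKM, lay within those of the other 12 mice, 59.8 to 157 FPKM and 58600 to 98600 FPKM. The sum of 6 cholangiocyte markers was 24.7 to 83.5 FPKM in this run and 29.0 to 262 FPKM in the others. The limma F test over all 4 runs gave an unadjusted p under 0.05 for 17.6% of all genes. Such a p was found for 8 of 8 sinusoidal endothelial, 6 of 7 Kupffer and 6 of 13 portal fibroblast and mesothelial genes. Further counts were 4 of 12 smooth muscle and pericyte, 4 of 27 stellate, 2 of 7 hepatocyte and 1 of 5 cholangiocyte genes. The part that a different share of these cells had in the collagen levels was not tested.

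Ratios of 2 genes within a mouse need no scaling between libraries, and 4 were compared: the 2 chains of type I collagen, the 2 fibrillar types, the 2 chains of type IV collagen, and the 2 filament genes. The ratio of *Col1a1* to *Col1a2* was 0.636, 0.544, 0.588, 0.707, 0.732, 0.743, 0.693 and 0.513 in *Fgl1* LWT replicates 1 to 8, and 0.868, 0.806, 0.654, 0.722, 0.777, 1.02, 0.774 and 0.885 in *Fgl1* LKO replicates 1 to 8. Its geometric mean was 0.639 in *Fgl1* LWT mice and 0.807 in *Fgl1* LKO mice, a log2 difference of 0.34 with an SD of 0.204 and 0.196 in the 2 groups. The exact permutation test gave p = 0.00451, two-sided, and 0.018 after adjustment over the 4 ratios. The 4 ratios were chosen with earlier results of these data known, which the adjustment does not cover. The share of other pairs of genes with such a p was not examined. 7 of 8 *Fgl1* LKO mice lay above the *Fgl1* LWT median, and the ranges overlapped in the *Fgl1* LKO replicates 3 and 4.

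The run bears on this ratio too. The 3 mice numbered 36 to 38, all *Fgl1* LWT, had ratios of 0.544 to 0.636, and without them the log2 difference was 0.27 (exact permutation test, adjusted p = 0.0839). Within the other runs it was 0.12 among mice 48 to 55, 0.17 among mice 60 to 64 and 0.47 among mice 69 to 72, above 0 in each. Each of these values rests on 1 to 3 mice per genotype. In mice 48 to 55, the *Fgl1* LWT mouse (0.707) lay above *Fgl1* LKO replicate 3 (0.654). In mice 60 to 64, *Fgl1* LKO replicate 4 (0.722) lay below both *Fgl1* LWT mice (0.732 and 0.743). Only in mice 69 to 72 did the genotypes not overlap. In mice 36 to 38, genotype and run cannot be told apart.

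The other 3 ratios did not pass the threshold. *Col1a1* to *Col3a1* was 0.322 in *Fgl1* LWT and 0.364 in *Fgl1* LKO mice (geometric means, log2 difference 0.18, exact permutation test, p = 0.0796, adjusted p = 0.159). *Col4a1* to *Col4a2* was 1.54 and 1.67 (0.12, exact p = 0.344, adjusted p = 0.344). *Acta2* to *Des* was 0.697 and 0.92, with all 8 *Fgl1* LKO mice above the *Fgl1* LWT median (0.40, exact p = 0.156, adjusted p = 0.208). Without *Fgl1* LWT replicate 4, the mouse with the most *Acta2*, the last of these differences was 0.58 (exact permutation test, adjusted p = 0.0339), and within runs it was -1.01, 0.49 and 1.28.

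**Figure D3:**
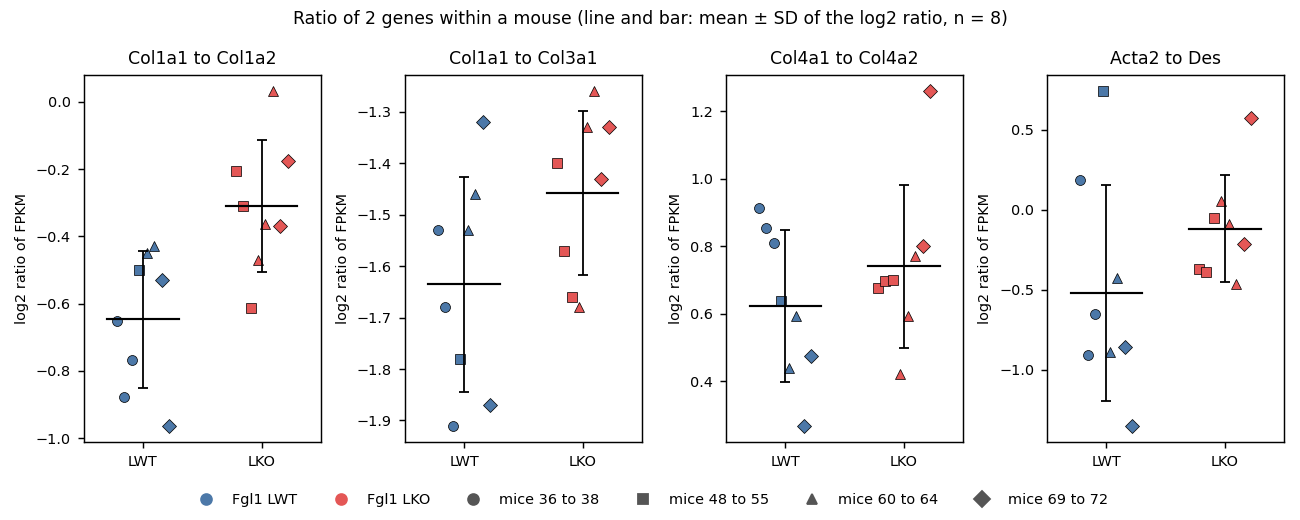
Log2 ratio of the FPKM of 2 genes in the same mouse (y axis, one panel per ratio) in *Fgl1* LWT and *Fgl1* LKO mice (x axis), with the mean and SD as black lines, n = 8, and the run as the shape of the point. For *Col1a1* to *Col1a2* the *Fgl1* LKO mean of -0.309 lies above the *Fgl1* LWT mean of -0.646, and the circles, mice 36 to 38, are among the lowest *Fgl1* LWT values.

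Across the 16 mice, most of the 10 genes rose and fell together. Of the 45 pairs, 25 had a Pearson correlation of log2(FPKM + 1) past the threshold (permutation test, adjusted over the 45 pairs), all of them positive, and 23 did so by Spearman rank. The lowest r among the 25 was 0.55, and 6.18% of all pairs of the 12770 genes had an r at least as high. The median r over the 45 pairs was 0.60, against 0.06 over all pairs of genes. It was 0.52 after the mean of each run was removed, 0.60 after the mean of each genotype was removed and 0.53 without mice 48 to 55, where 12 of 45 pairs passed the threshold.

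The tightest block was that of the fibrillar collagens. *Col1a2* and *Col3a1* had r = 0.97 (rho 0.93), *Col1a1* and *Col3a1* r = 0.96 (rho 0.92), and *Col1a1* and *Col1a2* r = 0.93 (rho 0.86). The permutation p was 1e-05 for each r, the smallest that the resamples can give, and 0.00015 after adjustment, and for rho the adjusted values were 0.00045 and 0.000562. After removal of the run means these r were 0.94, 0.93 and 0.90. Without the 2 mice farthest from the median of the gene named first in each pair, *Fgl1* LWT replicate 8 and *Fgl1* LKO replicate 1, they were 0.95 for *Col1a2* with *Col3a1*, 0.92 for *Col1a1* with *Col3a1* and 0.86 for *Col1a1* with *Col1a2*.

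*Dcn* and *Reln* made a second pair, with r = 0.86 (rho 0.79, permutation test, adjusted p = 0.000225 for r and 0.00241 for rho), 0.88 after removal of the run means and 0.74 without *Fgl1* LKO replicates 3 and 5. *Lrat* passed the threshold with these 2 genes and with no other. Its r was 0.64 with *Dcn* (rho 0.62, permutation test, adjusted p = 0.018 and 0.0286) and 0.55 with *Reln* (rho 0.42, adjusted p = 0.047 and 0.170). After removal of the run means these r were 0.59 and 0.60. Without the 2 farthest mice the first was 0.78, and the second was 0.22 without *Fgl1* LKO replicates 3 and 6, on which it rests. By Pearson r, *Dcn* did not pass the threshold with any collagen, at r = 0.31 with *Col1a1*, 0.54 with *Col1a2*, 0.45 with *Col3a1* and 0.36 with *Col4a1* (permutation test, adjusted p = 0.360, 0.0551, 0.133 and 0.274). By rank it passed with *Col1a2* (rho 0.58, permutation test, adjusted p = 0.0449).

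*Reln* was in both blocks, at r = 0.78 with *Col1a2*, 0.75 with *Col3a1*, 0.60 with *Col1a1* and 0.58 with *Col4a1*. *Des* likewise passed the threshold with the 4 collagens (r of 0.68 to 0.77), with *Acta2* (0.64), with *Dcn* (0.63) and with *Reln* (0.78). *Acta2* had its highest r with *Col4a1*, 0.77, ahead of 0.69 with *Col3a1*. Within the 8 *Fgl1* LWT mice, *Acta2* had r = 0.85 with *Col1a1*, 0.88 with *Col1a2* and 0.88 with *Col3a1*. Within the 8 *Fgl1* LKO mice these r were 0.17, 0.27 and 0.26. Among the *Fgl1* LWT mice, replicate 4 was the highest and replicate 8 the lowest for *Acta2* and for each fibrillar collagen. The r within *Fgl1* LWT mice without these 2 mice was not examined. With *Col4a1* the r of *Acta2* was 0.70 in *Fgl1* LWT and 0.88 in *Fgl1* LKO mice. *Timp1* passed with 0 of the 9 other genes, with r from -0.41 (*Lrat*) to 0.26 (*Col4a1*). Without *Fgl1* LWT replicate 8 and *Fgl1* LKO replicate 1, its r turned from -0.17 to 0.62 with *Col1a1*, from -0.16 to 0.46 with *Col3a1* and from -0.20 to 0.41 with *Col1a2*, so that the signs of these r rest on those 2 mice. Among the 28 pairs without *Timp1* and *Lrat*, 23 passed, with a median r of 0.69. Whether one r differs from another was not tested.

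**Figure D4:**
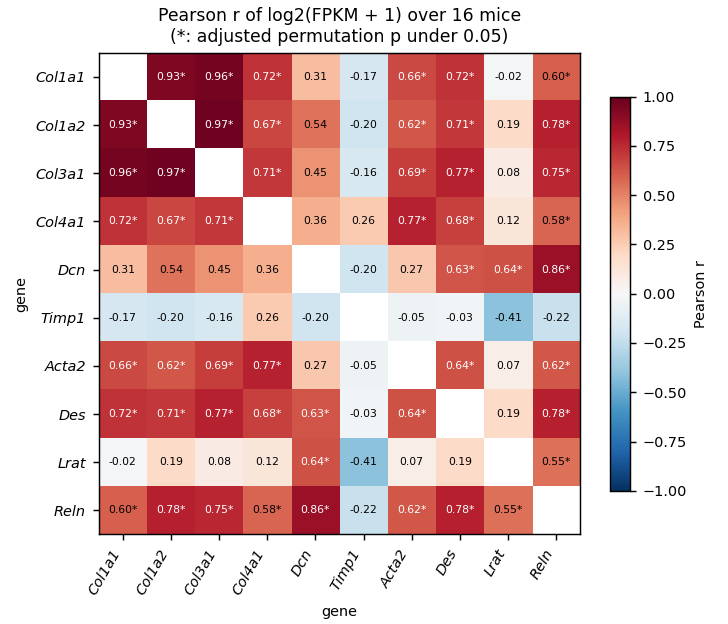
Pearson r of log2(FPKM + 1) over the 16 mice for each pair of the 10 genes (both axes list the genes, red is positive and blue negative), with a star where the adjusted permutation p is under 0.05. The 3 fibrillar collagens form the darkest block at 0.93 to 0.97, *Dcn* and *Reln* stand at 0.86, and the row of *Timp1* has no star.

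**Figure D5:**
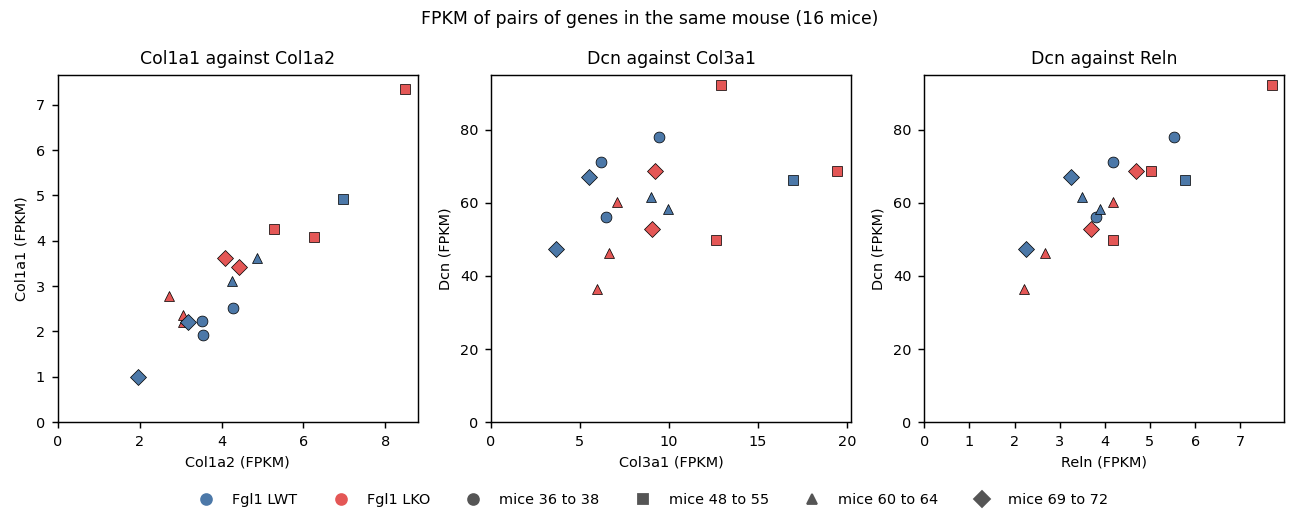
FPKM of 2 genes in each of the 16 mice (both axes in FPKM from 0, color for genotype and shape for the run). *Col1a1* follows *Col1a2* (r = 0.93 on the log2 scale) and *Dcn* follows *Reln* (0.86), while *Dcn* against *Col3a1* is scattered (0.45), with mice 48 to 55 at the right.

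Among 10028 other genes that averaged 1 FPKM or more, those closest to the mean z-score of the 3 fibrillar collagens over the 16 mice were mostly matrix genes, given here as a description. *Col6a3*, *Col6a2* and *Col6a1*, the 3 chains of the microfibrillar type VI collagen, led with Pearson r of 0.95, 0.93 and 0.91. *Ccdc80*, *Vim* (vimentin), *Timp2* (a metalloproteinase inhibitor), *Tnxb* (tenascin-X), *Sparc* (a collagen-binding glycoprotein), *Rcn3* and *Adamts2* (the protease that trims procollagens I and III) followed at 0.89 to 0.91. After removal of the run means their r was 0.73 to 0.91.

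The genes nearest to *Dcn* were others, *Abcc9* (r = 0.92), *Gdf2* (0.91), which encodes BMP9, a ligand that stellate cells make, and *Ntn1* (0.88). *Reln* was closest to *Pam* (0.97), *Col14a1* (0.95), a fibril-associated collagen, and *Gdf2* (0.93). *Lrat* was closest to *Cyp26b1* (0.87), which degrades retinoic acid, then *Dmd* (0.76) and *Pitpnc1* (0.70). *Col4a1* went with *Ano6* (0.91), *Tagln* (0.89), a smooth muscle actin-binding protein, and *Lfng* (0.89). *Acta2* went with *Lamc1* (0.91), the laminin γ1 chain of basement membranes, *Ddb1* (0.85) and *Mcam* (0.85), and *Des* with *Bloc1s3* (0.85), *Adamts2* (0.82) and *Plvap* (0.82). *Timp1* had no r above 0.70 (*Mup9* and *Eif4ebp3*, then *Ly96* at 0.69).

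*Saa1*, an acute-phase gene of hepatocytes that ranged from 63.8 to 16268 FPKM, was compared with the 10 genes because the mice differed so widely in it. None of the 10 passed the threshold after adjustment over the 10 (permutation test). *Reln* came closest, with r = -0.64 (p = 0.007, adjusted p = 0.070) and rho = -0.65 (adjusted p = 0.0721), -0.67 without *Fgl1* LWT replicates 1 and 3, the farthest in *Saa1*, and -0.63 after removal of the run means. Of all other genes, 6.30% had an r with *Saa1* at least as far from 0. *Dcn* followed at r = -0.57 (permutation test, adjusted p = 0.105) and rho = -0.50, and the fibrillar collagens lay between -0.21 and 0.02.

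Among other genes of the same pathways, again 0 passed the threshold between genotypes in any list. Of 27 further stellate cell markers, 8 had a log2 fold change above 0, against 55.8% of all genes, with a median of -0.06. Of the 27, 2 had an unadjusted limma p under 0.05, both lower in *Fgl1* LKO mice, against 7.01% of all genes in either direction. These were *Tcf21*, a transcription factor of stellate cells, at 3.62 ± 0.873 and 2.56 ± 0.432 FPKM (SD, n = 8 each, exact permutation p = 0.00901, limma adjusted p = 0.696), and *Pth1r*, a parathyroid hormone receptor, at 5.16 ± 0.789 and 4.04 ± 1.4 FPKM (exact permutation p = 0.0544, limma adjusted p = 0.696). No *Fgl1* LKO mouse lay above the *Fgl1* LWT median of *Tcf21*. The most abundant of this list were *Steap4* (89.0 FPKM) and *Ecm1* (52.7 FPKM), with log2 fold changes of 0.71 (-0.49 to 1.92) and -0.07 (-0.44 to 0.30). *Steap4* varied widely, at 66.2 ± 91.7 FPKM in *Fgl1* LWT and 112 ± 122 FPKM in *Fgl1* LKO mice (SD, n = 8 each). Its Pearson r with the mean z-score of the 3 fibrillar collagens was 0.17, and that of *Ecm1* was 0.57.

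Over all genes, 55.8% had a log2 fold change above 0 and 7.01% had an unadjusted limma p under 0.05. Of 28 collagen processing genes kept, 21 lay above 0 (median 0.0364, led by *P4hb* and *Ppib* in level) and 1 had an unadjusted limma p under 0.05. This was *Crtap*, a subunit of the collagen prolyl 3-hydroxylase complex, at 3.40 ± 0.424 FPKM in *Fgl1* LWT and 2.67 ± 0.634 FPKM in *Fgl1* LKO mice (exact permutation p = 0.0165, limma adjusted p = 0.696). Of 31 genes kept from a list for TGF-beta and PDGF signalling, 24 lay above 0 (median 0.0884) and 0 had an unadjusted limma p under 0.05. The list includes the main profibrotic signals and also the matrix gene *Fn1*. *Fn1* (322 FPKM) and *Eng* (18.9 FPKM) were the most abundant. Of 12 matrix proteases and inhibitors kept, 8 lay above 0 (median 0.0411), led by *Mmp19* and *Mmp14* in level.

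The other collagens showed the same picture of small differences, and 55.8% of all genes lay above 0. 4 of 5 other fibrillar collagens (median 0.031, most abundant *Col5a3* and *Col27a1*), 8 of 9 non-fibrillar collagens (0.0876, *Col14a1* and *Col6a1*) and 14 of 20 basement membrane genes (0.0213, *Col18a1* and *Sparc*) lay above 0. The small leucine-rich proteoglycans, the family of *Dcn*, were split 4 to 4 (0.0102, *Bgn* and *Prelp*), as were nearly the retinoid handling genes around *Lrat*, 7 of 13 (0.0155, *Rbp4* and *Aldh1a1*). Of the 3 reelin receptor and adaptor genes only *Vldlr* was kept, at 0.163 FPKM.

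Markers of the other cell types that share these genes gave 3 more unadjusted limma p-values under 0.05, which 7.01% of all genes had. *Fbln2*, a portal fibroblast gene, was at 0.381 ± 0.186 and 0.583 ± 0.128 FPKM (SD, n = 8 each, exact permutation p = 0.0219), *Adgre1* at 3.66 ± 1.01 and 5.16 ± 1.64 FPKM (exact p = 0.0455) and *Vsig4*, like *Adgre1* a Kupffer cell gene, at 11.9 ± 2.80 and 15.8 ± 4.31 FPKM (exact p = 0.0514), each with an adjusted limma p of 0.696. With the runs as a term, the log2 fold change went from 0.38 to 0.22 for *Adgre1*, from 0.37 to 0.21 for *Vsig4* and from 0.20 to 0.18 for *Fbln2*. All 7 Kupffer cell genes lay above 0 (median 0.247), against 55.8% of all genes. The summed Kupffer cell markers were at 59.8 to 125.2 FPKM (median 95.1) in *Fgl1* LWT and 74.9 to 157.4 FPKM (median 111.7) in *Fgl1* LKO mice, led by *Cd5l* and *Clec4f*, whose log2 fold changes of 0.16 and 0.25 were -0.10 and 0.03 with the runs as a term. Of the 12 smooth muscle and pericyte genes kept 9 lay above 0 (median 0.0666, led by *Cald1* and *Tpm1*), of the 13 portal fibroblast and mesothelial genes 7 (0.03, led by *Dpt* and *Gas1*), and of the 8 sinusoidal endothelial genes 7 (0.0622, led by *Clec4g* and *Oit3*). All 5 cholangiocyte genes kept lay above 0 (0.216, led by *Spp1* and *Sox9*), as did 7 of 8 acute-phase genes (0.119, led by *Hp* and *Saa1*) and 3 of 7 hepatocyte genes (-0.0371). The part of any of these cells in the levels of the 10 genes was not tested.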

How the data were processed

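Per the labels and the study's methods, liver polyA RNA was sequenced from strand-specific libraries. The authors filtered the reads and used HISAT and Bowtie2 with mm39, versions not given in the sources used here, and deposited FPKM to 2 decimals, without counts (864 of 17003 genes were at 0 in all mice). The number of reads is unknown, so no counting error is given. An estimate of relative depth from the lowest values differed by at most 1.026-fold. It used only values close to the lowest of each gene, rounded to 2 decimals, so it cannot show a large difference in depth.

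Replicates are mice. Values of log2(FPKM + 1) of genes averaging 0.1 FPKM or more were compared with limma 3.58.1 (R 4.3.3, trend, two-sided), adjusted by Benjamini-Hochberg over all genes, with a threshold of 0.05. This scale understates changes of low genes. Exact permutation tests covered all splits of the mice, and correlations used 100000 resamples (Python 3.11.15, scipy 1.17.1). The limma and permutation steps were tested on simulated data. The 10 genes, the lists and the 4 ratios were chosen with earlier results of these data known. Named genes were the members, *Fgl1*, *Saa1*, *Col4a2*, the genes of each list past a threshold (adjusted, or unadjusted p under 0.05), the 2 most abundant of each list and the nearest genes by r. Promoters came from GRCm39 with GENCODE vM39. Leaving out mice 48 to 55, leaving out single mice in the correlations and the test of the runs were chosen after seeing the data. Other experiments of the study were not analysed here.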

Additional observations from a re-analysis of the deposited data

Results flagged for a closer look

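In the 28 groups of 8 mice searched (10 genes and 4 ratios in 2 genotypes), 2 held a mouse far from the others, and chance alone flags about 1 in 20 groups, or 1.4 here. *Des* in *Fgl1* LKO replicate 5 was at 0.81 FPKM, the lowest of its group, and its gap to the next mouse was 0.541 of the group's range on the log2(FPKM + 1) scale, above Dixon's 95% limit for 8 samples. The same mouse had the lowest *Dcn*, *Reln* and *Col3a1* of the *Fgl1* LKO mice. Without it, *Des* and *Col4a1* had unadjusted limma p-values under 0.05 and no adjusted one. The ratio of *Col4a1* to *Col4a2* in *Fgl1* LKO replicate 8 was 2.40, with a gap of 0.548 of the range. This mouse had the most *Col4a1* of all (17.55 FPKM).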

How the results depend on the processing

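The count of 0 of the 10 genes past the threshold between genotypes held under all 30 alternatives, with 0.481 as the lowest adjusted p of a member in any of them (limma). No gene other than *Fgl1* passed in any of them, so the unchanged count says little about the members. The sign of the log2 fold change was kept throughout for *Col1a1*, *Col3a1*, *Col4a1*, *Acta2*, *Des* and *Dcn*. The value of *Lrat*, 0.00375, turned to -0.0119 and -0.0152 with pseudocounts of 0.1 and 0.01, -0.00951 with median-ratio scaling, -0.0113 with quantile normalization, -0.0448 with array weights and -0.137 without mice 48 to 55. Without these mice *Col1a2* was at -0.0464 and *Reln* at -0.0935, and *Col1a2* was at -0.0247 with the run as a term. When each mouse was left out in turn, the log2 fold change ranged from -0.127 to 0.114 for *Lrat*, -0.12 to 0.086 for *Timp1* and -0.0604 to 0.145 for *Reln*. An unadjusted limma p under 0.05 appeared for *Col4a1* without *Fgl1* LWT replicates 4 or 5 or *Fgl1* LKO replicates 5 or 6, for *Acta2* without *Fgl1* LWT replicate 4 or mice 48 to 55, for *Col1a1* without *Fgl1* LWT replicate 4 and for *Des* without *Fgl1* LKO replicate 5. The cause of these shifts was not tested.

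Over all genes, the count of 0 past the threshold became 1, *Fgl1* itself, with an equal sum in each mouse, with the run as a term, with the replicate block and without mice 36 to 38. Mice with the same replicate number are not paired (3 of 8 correlations of same-numbered mice were over 0.1, from -0.161 to 0.446), and with this block the count for the members was also 0. For *Col1a1* to *Col1a2* the log2 difference was 0.265 (adjusted p = 0.0839) without mice 36 to 38, where fewer mice are compared, and 0.288 to 0.38 when each mouse was left out, and for *Acta2* to *Des* 0.282 to 0.58. Of the pairs of genes, 12 passed without mice 48 to 55 and 18 with quantile normalization. With *Saa1*, 1 gene passed after removal of the genotype means, and 0 to 3 when each mouse was left out. Read numbers are unknown, so the counting error of low genes such as *Timp1* could not be given.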
